A study of Mus musculus with 24 samples.

Results

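The effect of an antisense oligonucleotide (ASO) against a tRNA fragment was measured across all genes in 24 mRNA libraries of dispersed mouse pancreatic islet cells. All 12 libraries labelled αGlu were compared with all 12 labelled Ctr, which are all 24 libraries of the series, with treatment and batch as covariates and no interaction term. The cells were wild type, and every library received an ASO, so no untransfected cells entered the comparison. In the αGlu libraries, 50 pmol of a custom LNA inhibitor against 5'tRF-Glu(CTC) was delivered by lipofection, and in the Ctr libraries the supplier's LNA inhibitor control. In each arm, 6 libraries were then exposed for 48 h to 0.75% BSA, the vehicle, and 6 to 0.5 mM palmitate (PA) bound to BSA. Batch 1 is S1 to S12 and batch 2 is S13 to S24, each with 3 libraries of all 4 groups, and the meaning of the batch label is not stated. The islets came from male and female animals. The study states that its groups came from the same animal in each replicate, but the labels do not state which libraries share an animal, and no pairing entered the main comparison. The level of the fragment itself cannot be read from this mRNA table.

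tRNA-derived fragments are cut from tRNAs by nucleases such as angiogenin, and those from the 5' end can bind proteins and other RNAs. Type I interferons signal through a receptor that activates STAT proteins, among them STAT2, which joins IRF9 to switch on antiviral genes through a short promoter element, the ISRE. Islets are wrapped by Schwann cells, the glia of peripheral nerve, which share markers such as Sox10, S100b and Gfap with enteric glia and are a small minority beside the endocrine cells.

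The oligonucleotides are shown because the whole comparison rests on a base-paired duplex. The αGlu ASO has 20 bases, and the capitals in the fragment mark bases 2 to 21, which pair with it. The 21 bases shown are the target stretch listed for the inhibitor. The study reports longer fragments in islet cells, so this is not the full length of the fragment.
ASO αGlu, 5' to 3': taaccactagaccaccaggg
5'tRF-Glu(CTC), 5' to 3': tCCCTGGTGGTCTAGTGGTTA
The sequence of the control inhibitor is not used here.

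Library totals ran from 18214719 to 35001979 counts in Ctr and from 24608893 to 31049750 in αGlu, and the mean difference of 615310 counts was within the spread (two-sided exact permutation within treatment and batch, p = 0.682). Values are TMM-adjusted counts scaled to a common library size (CPM) unless TPM, which is scaled per transcript length, is named. The libraries were dominated by endocrine cells, with Ins1 at 51800 to 95000 TPM in Ctr and 53200 to 97100 TPM in αGlu. Of the defining markers of the other cell types, Sox10 had a median of 1.62 TPM in Ctr and 0.22 TPM in αGlu, and the T cell gene Cd3e had a median of 0 TPM in both. On the first principal component, which held 35.4% of the variance, batch accounted for 66.1% and treatment for 28.2%. The ASO accounted for at most 25.5% of any of the leading components. On the third, which held 6.3%, Ctr BSA library S9 and Ctr PA library S23 stood apart from the others. The count of called genes and some other results are also given without them. Fold changes of single genes include them unless stated.

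Few genes differed between the αGlu and Ctr libraries. At an adjusted p below 0.05 (edgeR's quasi-likelihood test with Benjamini-Hochberg adjustment over 15916 genes), 35 genes changed, 0.22% of those tested. Of these, 8 rose (0.0503%) and 27 fell (0.17%). All 8 raised genes were on a list of type I interferon response genes, 11 of the 27 lowered genes were on a list of Schwann cell and enteric glia genes, and the other 16 were on neither. Both lists were written with earlier results of these data known. Hand2, Gap43, S100b, Gdnf, Ngfr, Sox10, Gfap and Foxd3 of the 11 are also among the genes the study names. The counts on these lists are therefore not independent evidence. The raised genes changed little, with a median log2 fold change of 0.56 (range 0.19 to 3.08), and the lowered genes changed more, with a median of -2.60 (range -3.76 to -0.29). In bulk islet cells, fewer cells of a type and less RNA per cell cannot be told apart. An unadjusted p below 0.05 was reached by 628 genes (3.95%), of which 220 (1.38%) were higher and 408 (2.56%) lower in αGlu. Of these, 107 (0.672%) also differed by more than 2-fold, 20 higher (0.126%) and 87 lower (0.547%). The median log2 fold change of all genes was 0.00 and 7641 of them (48%) were higher.

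**Figure D1:**
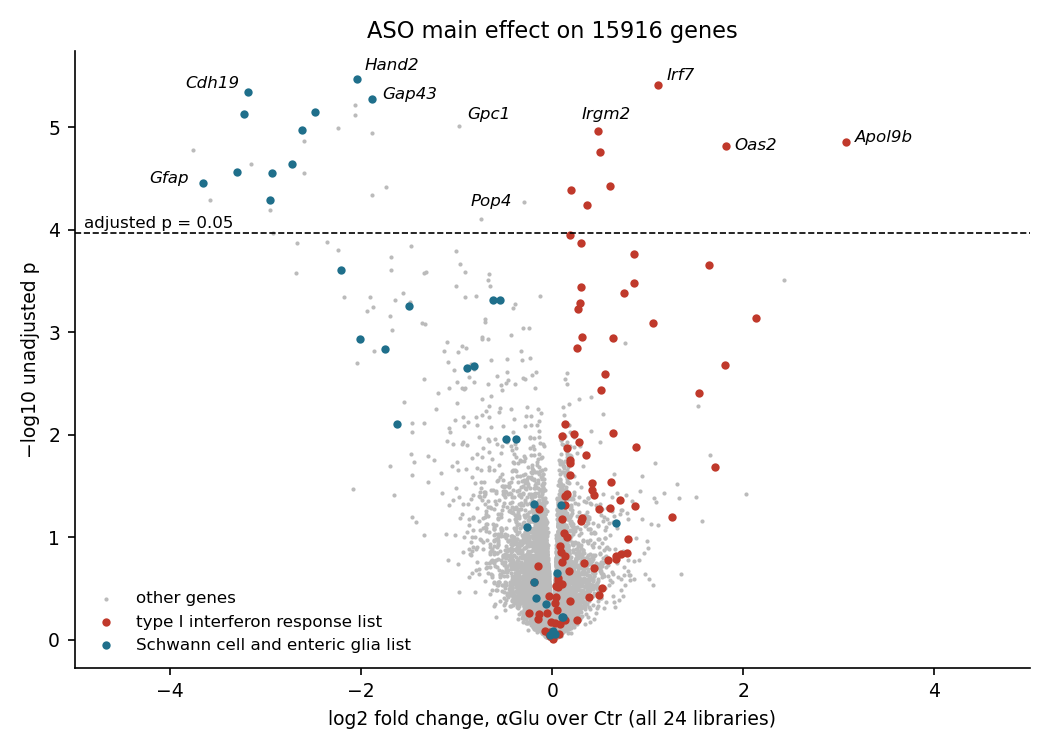
Log2 fold change of αGlu over Ctr (x axis) against −log10 of the unadjusted p (y axis) for 15916 genes in all 24 libraries, with genes of the interferon list and of the Schwann cell and enteric glia list in colour. The 8 raised genes past the adjusted threshold all belong to the interferon list, and the 27 lowered ones reach a log2 fold change of -3.76.

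The count of called genes depended on the model and on single libraries. With Ctr BSA library S9 left out, 16 genes passed, without Ctr BSA library S21 18, without αGlu PA library S24 22, and without Ctr BSA library S17 63. Without both S9 and S23, an omission chosen after seeing the data, 1 gene passed, Irgm2, although all 35 kept their direction with an unadjusted p of at most 0.00112. Dropping the batch term left 0 genes past the adjusted threshold (387 at an unadjusted p below 0.05), dropping the treatment term also 0 (364), and limma voom with sample quality weights left 1, again Irgm2. DESeq2's Wald test on the same genes passed 90, 22 raised and 68 lowered. Taking each 4 consecutive library numbers, which hold 1 library of every group, as a block in place of the batch term passed 60 genes, 22 raised and 38 lowered, with 34 of the 35 among them. The labels do not state these sets, and this fit was chosen after seeing the data. All 35 genes kept their sign under each of these. With each library left out in turn, 16 of the 35 passed in every one of the 24 fits, and the others lost their call in some of them. Among the latter, Kcna6 passed in 7 fits (highest adjusted p = 0.198), C1ql1, Grik3 and Itga1 in 12, Stat2 in 14, Pop4 in 15, Foxd3 in 16, Nkd2 in 17, Plxnb3 in 18 and Trim25 in 20, and the rest in 21 to 23.

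**Figure D2:**
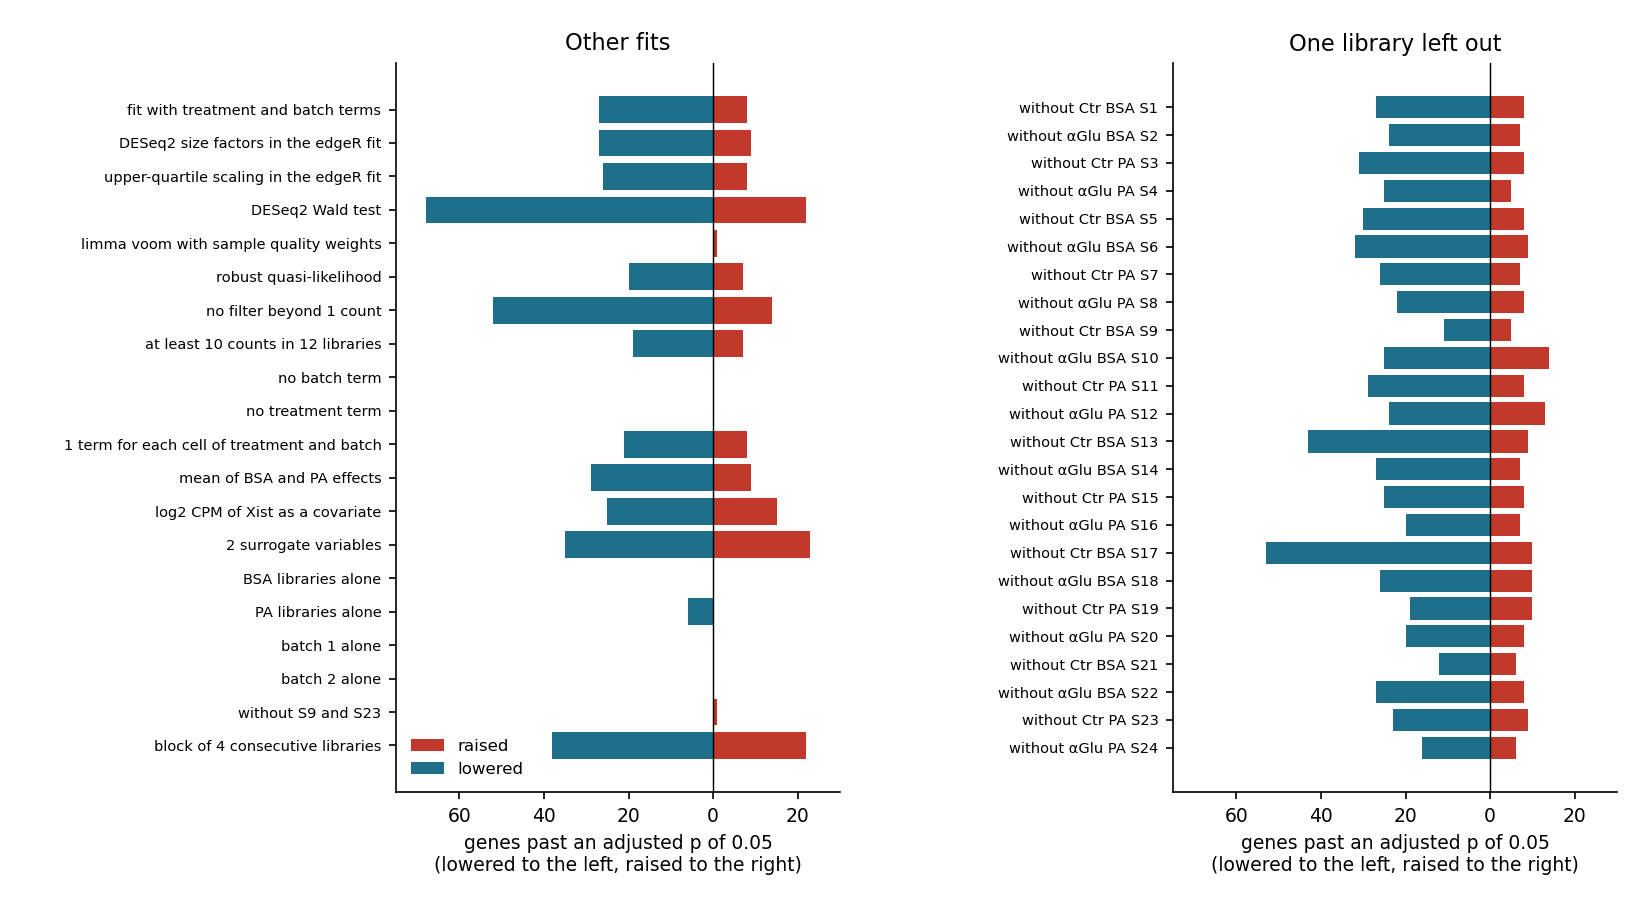
Number of genes past an adjusted p of 0.05 (x axis, lowered genes to the left of 0 and raised genes to the right) under the fit with treatment and batch terms and each other fit (left), and with each library left out in turn (right). The count of 35 goes to 16 without S9 and to 63 without S17, to 60 with blocks of 4 consecutive libraries, and to 0 without the batch or the treatment term.

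The raised genes included the transcription factors Irf7, Irf9 and Stat2. Irf7, the interferon-inducible factor that amplifies interferon production (chr7:141263183-141266499), had the smallest p of the raised genes. In batch 1 it read 4.64, 5.14 and 3.80 CPM in Ctr BSA and 14.8, 14.8 and 6.13 CPM in αGlu BSA. After PA it read 3.72, 3.10 and 2.19 CPM in Ctr and 10.3, 8.95 and 2.47 CPM in αGlu. In batch 2 the Ctr BSA values were 2.17, 2.02 and 3.15 CPM against 5.92, 5.80 and 4.26 CPM with αGlu, and the Ctr PA values 2.22, 1.91 and 1.83 CPM against 3.74, 2.97 and 2.26 CPM. The αGlu libraries were all above the Ctr ones in 3 of the 4 combinations of treatment and batch, and in the fourth, PA in batch 1, the lowest αGlu library overlapped. The log2 fold change was 1.11 ± 0.189 (SE, adjusted p = 0.0140).

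Irf9 and Stat2, which act together in the complex that binds the ISRE, also rose. Irf9 ran from 13.8 to 34 CPM in Ctr (median 21.4) and from 18 to 62.7 CPM in αGlu (median 29.4), a log2 fold change of 0.50 ± 0.0955 (adjusted p = 0.0155). Stat2 ran from 29.4 to 53.9 CPM in Ctr (median 35.8) and from 31.8 to 90.2 CPM in αGlu (median 44.5), a log2 fold change of 0.37 ± 0.0759 (adjusted p = 0.0287). For both, the ranges of 12 and 12 libraries overlapped, and the values did not overlap within 3 of the 4 combinations of treatment and batch. The other parts of the pathway, picked by role after their values were seen, were at a log2 fold change of 0.00 for the receptor chain Ifnar1, -0.14 for Ifnar2, 0.03 for the kinase Jak1, 0.10 for Irf3 and 0.01 for Irf1.

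Oas2, Apol9b, Irgm2, Ifi27 and Trim25 encode effectors or regulators of the response. Oas2, an antiviral enzyme that makes the second messenger of RNase L (chr5:120730333-120749886), ran from 0.279 to 2.58 CPM in Ctr (median 0.956) and from 0.767 to 9.44 CPM in αGlu (median 3.56). Its log2 fold change was 1.82 ± 0.342 (adjusted p = 0.0152). In the PA libraries of batch 1 the αGlu values were 6.60, 4.59 and 1.18 CPM against 1.31, 0.911 and 0.279 CPM in Ctr, and in the BSA libraries of batch 1 they were 9.44, 9.35 and 0.767 CPM against 2.58, 2.50 and 1.28 CPM. The third αGlu BSA library of batch 1, S10, thus lay below the Ctr values of its combination, while the other two lay far above them. Apol9b, an apolipoprotein L gene induced by interferon (chr15:77729047-77736382), had a Ctr median of 0 CPM and an αGlu median of 0.498 CPM (highest 0.99 and 3.10). Its log2 fold change of 3.08 ± 0.574 (adjusted p = 0.0148) rests on few reads, and reads of Apol9b and its near-identical neighbour Apol9a (2.13, adjusted p = 0.147) may have been split between them.

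The remaining 3 raised genes were expressed at higher levels. Irgm2, an interferon-inducible GTPase that acts on membranes of intracellular pathogens (chr11:58214977-58222783), ran from 5.47 to 9.95 CPM in Ctr (median 7.70) and from 6.68 to 17 CPM in αGlu (median 10.6), a log2 fold change of 0.48 ± 0.0881 (adjusted p = 0.0140). It passed in all 24 fits with 1 library left out, and was the only gene that passed with limma voom or without S9 and S23. In PA alone 6 genes passed, all of them lowered, so Irgm2 did not pass there. Its log2 fold change was 0.66 in BSA and 0.30 in PA. The unadjusted p for that difference was 0.039 (quasi-likelihood test of the interaction), which did not pass the adjusted threshold. Ifi27, an interferon-induced membrane protein, rose from a median of 18.8 to 24 CPM (log2 fold change 0.61 ± 0.122, adjusted p = 0.0237). Trim25, a ubiquitin ligase of the RIG-I pathway, had the highest level of the raised genes and the smallest change, from a median of 103 to 116 CPM (0.19 ± 0.0389, adjusted p = 0.0244). In all 8 genes the highest value was in an αGlu library, in S6 for 5 of them, and between 9 and 12 of the αGlu libraries lay above the Ctr median.

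**Figure D3:**
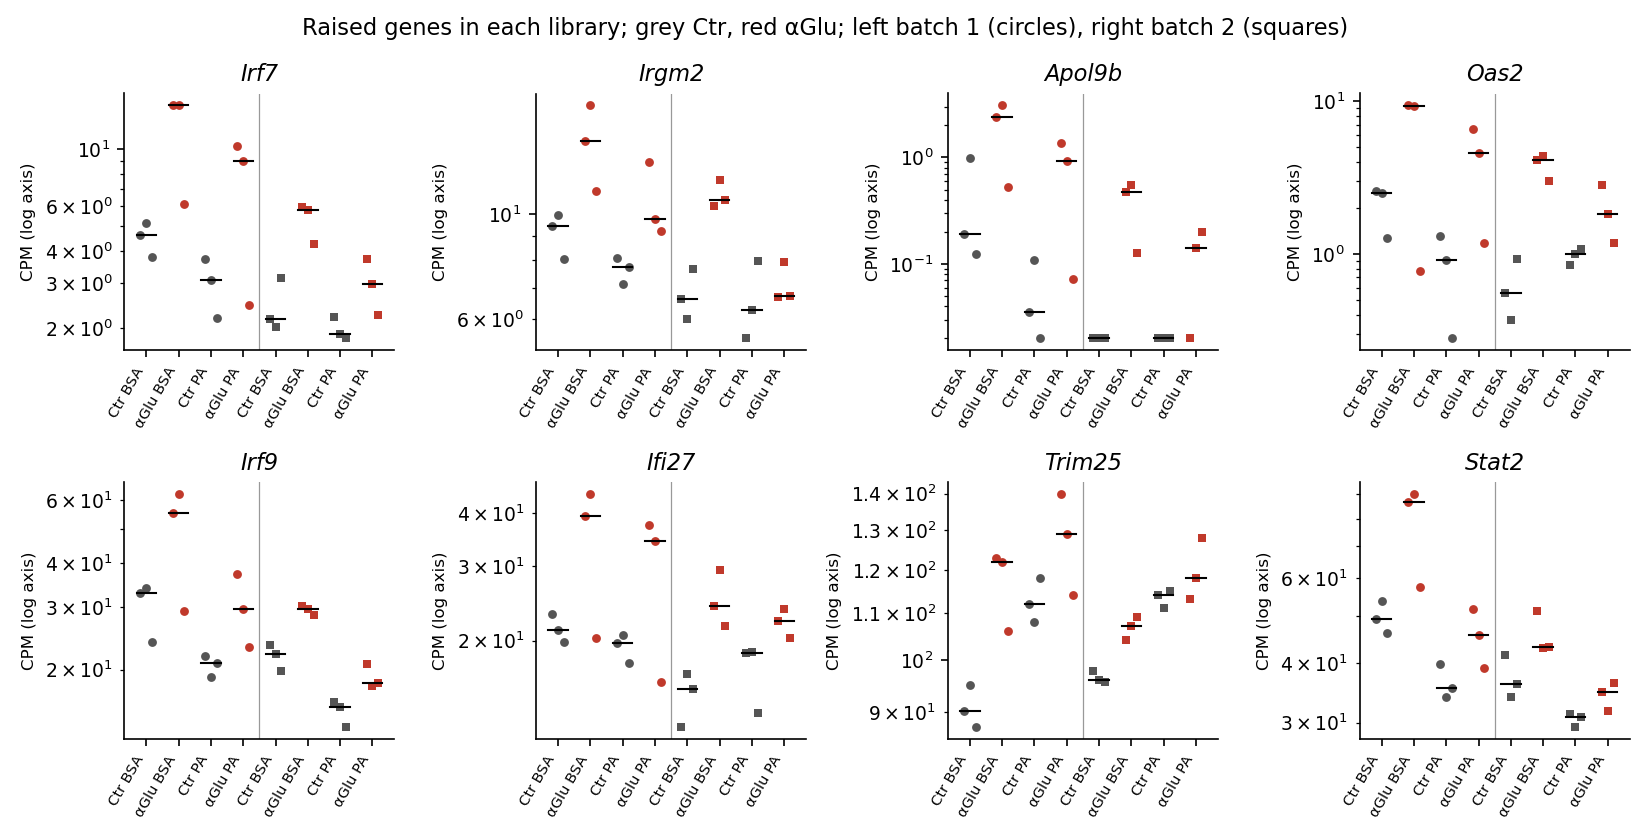
CPM on a log axis of raised genes in each library, with Ctr in grey, αGlu in red, batch 1 as circles on the left and batch 2 as squares on the right of each panel, bars at the median of 3 libraries and values of 0 drawn at 0.02 CPM. Irf7 reaches 14.8 CPM in αGlu BSA of batch 1, and αGlu libraries S10 and S12 lie nearest to the Ctr libraries there.

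Summed over the 8 raised genes, the 3 Ctr and 3 αGlu libraries of a combination did not overlap in 3 of 4. With BSA, the sum was 190, 212 and 223 CPM in Ctr and 232, 346 and 364 CPM in αGlu of batch 1, and 177, 179 and 185 CPM against 220, 231 and 232 CPM in batch 2. With PA in batch 2 it was 184, 184 and 189 CPM against 204, 204 and 213 CPM. With PA in batch 1 it was 193, 202 and 206 CPM in Ctr and 205, 263 and 298 CPM in αGlu, so that the lowest αGlu library fell just inside the Ctr range. These sums describe genes chosen for their difference and carry no test.

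The interferon list as a whole leaned the same way. Of its 110 genes, 103 were tested, and 89 of these were higher in αGlu. An unadjusted p below 0.05 was reached by 47, all of them higher, against 1.38% of all genes tested. The median log2 fold change was 0.26 (0.30 in BSA alone, 0.16 in PA alone, 0.33 in batch 1, 0.10 in batch 2), beside 0.00 for all genes. By role, the median was 0.61 for 9 genes of the OAS family and RNase L (7 at an unadjusted p below 0.05), 0.54 for 12 IFIT and IFI genes (6), 0.32 for 16 GTPases (7), 0.22 for 13 RNA and DNA sensors (5), 0.16 for 40 other effectors (16) and 0.10 for 13 signalling and transcription factors (6). Just outside the adjusted threshold lay the RNA editing enzyme Adar (0.19, adjusted p = 0.0503), the interferon-receptor brake Usp18 (0.30, adjusted p = 0.0556), Xaf1 (0.86, adjusted p = 0.0640) and Oas3 (1.64, adjusted p = 0.0773). All 4 passed with the block of 4 consecutive libraries, a fit chosen after seeing the data. With each library left out in turn, Adar passed in 5 of the 24 fits, Usp18 in 4, Xaf1 in 3 and Oas3 in 2. None of them passed with limma voom or without S9 and S23. Among classical targets, chosen after their values were seen, Isg15 stood at 0.87, Ifit2 at -0.03 and Mx1 at 0.01, none past the adjusted threshold.

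Interferon transcripts themselves were at or near the limit of detection. No library held a count of Ifnb1, Ifna1, Ifna4, Ifna5, Ifnl2, Ifnl3 or Ifng, and Ifnab had 35 counts over the 12 Ctr libraries and 43 over the 12 αGlu libraries. The list of type I ligands had 0 of 10 genes above the filter on low counts. Counts cover sampling of reads only, and transcripts at an earlier time were not measured.

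The promoters of the raised genes are shown where they hold the ISRE core, searched as GAAANNGAAA on both strands in RefSeq windows from 250 bases before to 50 after each start on GRCm38.p6. Capitals mark the match, written as it stands on the plus strand.
Irgm2, chr11:58214903-58214932, plus strand, match 64 bases before the start: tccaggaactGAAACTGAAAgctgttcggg
Stat2, chr10:128270266-128270295, plus strand, match on the minus strand 222 bases before the start: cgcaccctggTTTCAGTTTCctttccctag
Apol9b, chr15:77729025-77729054, plus strand, match on the minus strand 37 bases before the transcript start at 77729072, one of several annotated: gaggtgagacTTTCAGTTTCcatttcccag
A second match in Apol9b overlaps the first. Of the 8 raised genes, 6 had a window and 3 held the motif, against 445 of 12087 genes tested (3.68%) and 1131 of all 32851 windows (3.44%). On the interferon list it was found in 21 of 36 genes higher at an unadjusted p below 0.05 and in 19 of 44 of the others, and among the lowered genes in 2 of 17. A match describes letters in a window and is not a binding site.

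The 27 lowered genes included regulators and markers of neural crest and glia. Hand2, a transcription factor of autonomic neurons and mesenchyme (chr8:57320983-57324517), read 2.00, 1.68 and 5.82 CPM in Ctr BSA of batch 1 and 0.705, 0.794 and 0.732 CPM in αGlu BSA. With PA in batch 1 it read 0.886, 1.17 and 0.757 CPM in Ctr and 0.366, 0.656 and 0.0717 CPM in αGlu. In batch 2, Ctr PA libraries read 2.47, 4.21 and 3.47 CPM and αGlu PA libraries 0.267, 0.175 and 0.484 CPM, while Ctr BSA libraries read 2.13, 0.827 and 6.82 CPM and αGlu BSA libraries 1.77, 1.03 and 1.32 CPM. The ASOs overlapped only with BSA in batch 2, where S17 was the lowest and S21 the highest library of all 6. The log2 fold change was -2.05 ± 0.346 (adjusted p = 0.0140). The antisense gene Hand2os1 overlaps Hand2 (-1.69, adjusted p = 0.142), and reads of the pair may not be told apart, since the strand setting of the counting is not stated.

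Of the other glial and neural crest regulators, Sox10, the master factor of Schwann cells, fell from a median of 2.02 CPM (0.184 to 10.1) to 0.242 CPM (0 to 3.35), with a log2 fold change of -2.93 ± 0.576 (adjusted p = 0.0195). The log2 fold change was -2.95 for Foxd3, a neural crest factor (adjusted p = 0.0275), and -3.15 for Sox2 (adjusted p = 0.0183). The αGlu medians of Foxd3 and Sox2 were 0.0550 and 0.0855 CPM, against 0.900 and 0.674 CPM in Ctr, and the ranges of both ASOs overlapped.

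Markers of the Schwann cell surface and cytoplasm fell as well. Cdh19, a cadherin of Schwann cell precursors (chr1:110888002-110977601), ran from 0.368 to 20.1 CPM in Ctr (median 2.82) and from 0 to 3.39 CPM in αGlu (median 0.434), a log2 fold change of -3.19 ± 0.550 (adjusted p = 0.0140). Ngfr, the p75 neurotrophin receptor of non-myelinating Schwann cells, read 16.2, 29.7 and 15.5 CPM in Ctr PA of batch 2 against 2.06, 0.420 and 1.69 CPM in αGlu PA, but 6.95, 0.735 and 43.0 CPM in Ctr BSA of batch 2 against 10.3, 0.993 and 7.96 CPM in αGlu BSA. The first of these sets did not overlap and the second overlapped fully. Over all libraries the log2 fold change of Ngfr was -2.72 ± 0.526 (adjusted p = 0.0183). The growth cone protein Gap43 (-1.89), the calcium-binding protein S100b (-2.48) and the filament protein Gfap (-3.65) fell too, as did Gdnf, a growth factor for enteric neurons (-2.62). The connexin Gjc3 of myelinating glia showed the largest fall, of -3.76 (adjusted p = 0.0155), with a median of 0 CPM in αGlu and 0.716 CPM in Ctr.

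**Figure D4:**
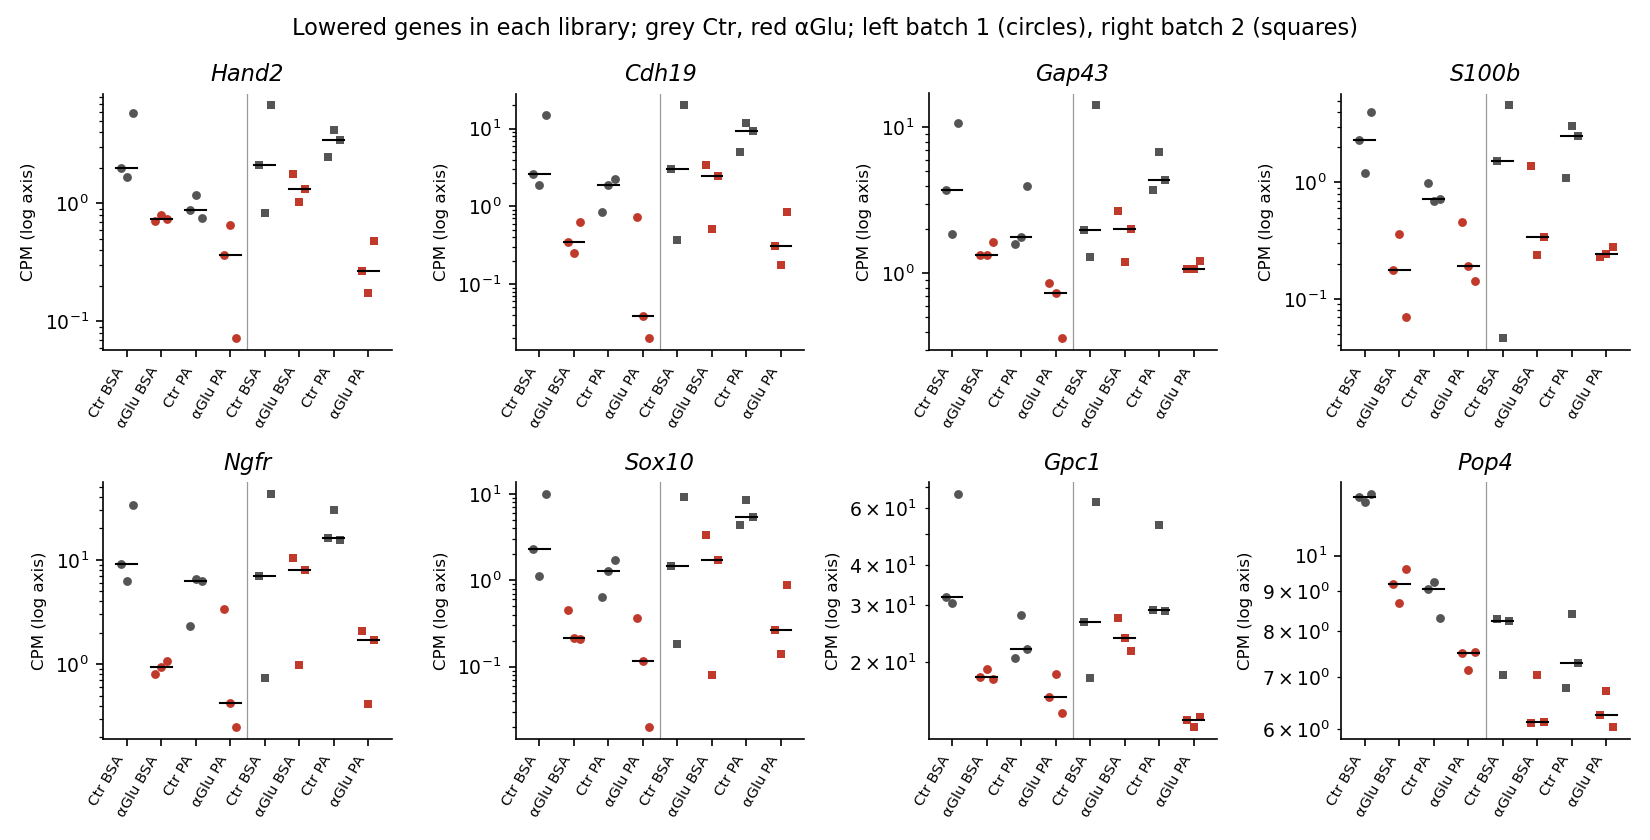
CPM on a log axis of 8 lowered genes in each library, with Ctr in grey, αGlu in red, batch 1 as circles on the left and batch 2 as squares on the right of each panel, bars at the median of 3 libraries and values of 0 drawn at 0.02 CPM. Hand2 overlaps between the ASOs only with BSA in batch 2, where Ctr library S17 reads 0.827 CPM and S21 6.82 CPM.

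The level of these genes differed widely between Ctr libraries. Summed over the 11 lowered genes of the glial list, Ctr libraries ran from 3.86 CPM in S17 to 115 CPM in S21, with 91.5 CPM in S9 and 76.5 CPM in S19, and αGlu libraries from 1.08 CPM in S12 to 26 CPM in S14. All 27 lowered genes had their highest value in a Ctr library, in S21 for 19, in S9 for 6 and in S19 for 2. Of the 27, 7 had all 12 αGlu libraries below the Ctr median and 21 had 11 or 12. None of the 35 changed genes separated all 12 αGlu from all 12 Ctr libraries, while 17 of the 27 lowered and 4 of the 8 raised genes separated them within at least 3 of the 4 combinations (0.239% of all genes tested). Without S9 and S23, the smallest adjusted p of a lowered gene was 0.0676. The labels do not give the number of glial cells in a library, and its part in these results was not tested.

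Over the glial list, 36 of 40 genes were tested, 29 were lower in αGlu, and 23 were lower at an unadjusted p below 0.05 against 2.56% of all genes. The list shares genes with those the study names, so this share is not independent evidence. The median log2 fold change was -0.72 (-0.67 in BSA, -0.70 in PA, -0.55 in batch 1, -0.83 in batch 2). Without S9 and S23, an omission chosen after seeing the data, it was -0.52. With all libraries, the median was -2.49 for 6 transcription factors, -0.72 for 20 glial markers and myelin genes, and -0.07 for 10 neurotrophic factors and receptors. Among the members of highest level, the myelin gene Mbp (median 39.5 TPM in Ctr, 40.1 in αGlu) had a log2 fold change of 0.01 and Ret (74.3 and 76.5 TPM) of 0.09. The summed level of the list, which Ret, Mbp and Ntrk2 dominate, ran from 598 to 875 CPM in Ctr and from 600 to 766 CPM in αGlu.

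Kcna1, a potassium channel on the glial list (-3.23), fell as well. Outside that list, the potassium channel Kcna6 (-2.92, adjusted p = 0.0488), the glutamate receptor Grik3 (-2.95), the synaptic protein C1ql1 (-3.58) and the adhesion molecule Chl1 (-1.89) fell. These 5 genes had Ctr medians of 0.830, 1.51, 0.874, 0.291 and 4.24 CPM. Gas7, a cytoskeletal gene of neurons, fell by 2.60 on the log2 scale, and Plxnb3, a semaphorin receptor, by 1.74. Greb1, an oestrogen-responsive gene, fell by 2.59 and Nkd2, an inhibitor of Wnt signalling, by 1.89. On the extracellular matrix list, the integrin ligand Edil3 (-2.07) and the membrane-bound protease Mmp17 (-2.07) fell, as did, outside it, the olfactomedin Olfml2a (-2.24), all with adjusted p = 0.0140. The highest Ctr values of these 3 were 23.7, 7.46 and 28.4 CPM.

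Gpc1, Itga1 and Pop4 showed the smallest changes of the lowered genes. Gpc1, a heparan sulphate proteoglycan of the cell surface (chr1:92831645-92860211), ran from 17.9 to 66.7 CPM in Ctr (median 29.0) and from 12.6 to 27.5 CPM in αGlu (median 17.9), a log2 fold change of -0.97 ± 0.177 (adjusted p = 0.0140). It was highest in S9, S21 and S19, the libraries with the highest sum of glial genes. Itga1, an integrin chain that binds collagen and laminin, fell by 0.75 (adjusted p = 0.0367), with -0.37 in BSA and -1.15 in PA and an unadjusted p of 0.0112 for that difference.

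Pop4, a protein subunit of RNase P and RNase MRP, which process the 5' ends of tRNAs and rRNA precursors (chr7:38262812-38271393), fell by the least of the 27. It read 11.9, 11.7 and 12 CPM in Ctr BSA of batch 1 against 9.20, 8.70 and 9.62 CPM with αGlu, and 9.07, 9.26 and 8.33 CPM in Ctr PA against 7.51, 7.14 and 7.53 CPM. In batch 2 it read 8.29, 7.03 and 8.24 CPM in Ctr BSA against 6.11, 7.03 and 6.13 CPM, and 6.77, 8.42 and 7.30 CPM in Ctr PA against 6.26, 6.72 and 6.04 CPM. It was the only gene of all tested (0.00628%) whose αGlu values lay below the Ctr values in all 4 combinations, with S17 and S18 equal at this rounding. The log2 fold change was -0.29 ± 0.0603 (adjusted p = 0.0275). Of 11 subunits of RNase P and RNase MRP tested, a set chosen after Pop4 was seen, the other 10 ran from -0.15 to 0.17 and none reached an unadjusted p below 0.05.

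The other cell types and pathways moved less, and 0 further list genes passed the adjusted threshold except where named. Of all genes tested, 48% were higher in αGlu. At an unadjusted p below 0.05, 1.38% of all genes were higher and 2.56% lower. All 20 genes of MHC class I and peptide loading were higher in αGlu, with a median of 0.12 and 3 at an unadjusted p below 0.05, among them H2-Q6 (0.76, adjusted p = 0.210). Their sum ran from 1190 to 1780 CPM in Ctr and from 1250 to 1950 CPM in αGlu. Of 61 extracellular matrix genes, 41 were lower, 14 of them at an unadjusted p below 0.05, with a median of -0.17, and Edil3 and Mmp17 passed the adjusted threshold. Edil3 and Mmp17 are also among the genes the study names. The median was -0.48 for 9 fibrillar collagens, -0.17 for 17 basement membrane genes and -0.22 for 17 proteases and modifiers. Fibroblast genes had a median of -0.16 over 19 genes, and their sum spread from 91.8 to 1130 CPM in Ctr and from 62.1 to 1560 CPM in αGlu.

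The median over 24 macrophage genes was -0.09. It was -0.89 in BSA, where 2 were higher, and 0.62 in PA, where all 24 were higher. For the difference between treatments, 0 of the 24 passed the adjusted threshold. An unadjusted p below 0.05 for that difference was reached by 12, against 2.09% of all genes tested. Without Ctr BSA library S21, an omission chosen after seeing the data, the BSA median was -0.39. Their sum was 541 CPM in Ctr BSA library S21 and 105 to 238 CPM in the other 5 Ctr BSA libraries, and none of the 24 passed the adjusted threshold or reached an unadjusted p below 0.05 in the pooled comparison. MHC class II genes, borne by the same cells, had a median of -0.24 over 5 genes, -0.98 in BSA (-0.40 without S21) and 0.15 in PA, and Cd74 stood at -0.98 and 0.15. Lymphocyte genes were mostly below the filter, with 3 of 16 tested. Chemokines and receptors that attract monocytes had a median of -0.01 over 17 genes. Endothelial genes had a median of -0.03 over 19.

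Endocrine and exocrine genes were close to level. Of 34 beta-cell genes, 28 were higher in αGlu with a median of 0.05, and 2 were higher at an unadjusted p below 0.05. The shares over all genes were 48% and 1.38%. Ins1 and Ins2 stood at 0.05 and 0.03. Alpha, delta and PP cell genes had a median of 0.00. Of 27 acinar genes, 25 were lower with a median of -0.15 and none reached an unadjusted p below 0.05, while their sum ran from 400 to 29400 CPM in Ctr and from 591 to 19200 CPM in αGlu, with the high values in batch 1. Ductal genes had a median of 0.02. ER stress (37 genes), fatty-acid oxidation (36), mitochondrial translation (36), immediate early (16), p53 target (12) and BCL2 family genes (15) had medians between -0.05 and 0.01, with Bcl2l1 at -0.07 and Bcl2 at -0.23. The 35 genes of tRNA fragment biogenesis and tRNA-Glu enzymes had a median of 0.01, and the nuclease gene Ang stood at 0.03.

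Of 26 tested genes that the study names for these comparisons, 5 were higher and 21 lower in αGlu, and the median was -1.90. At an adjusted p below 0.05, 1 rose and 10 fell, against 0.0503% and 0.17% of all genes tested. At an unadjusted p below 0.05, 2 were higher and 17 lower, against 1.38% and 2.56%. The study took part of this list from these samples, so the list is not independent evidence of its direction. Bcl2l1 and Bcl2 are named there from qPCR, and Neurod1, Vamp8 and Tax1bp3 from protein levels, so the median mixes these sources. Among its members that did not pass were Cadm3 (-2.21, adjusted p = 0.0807), Col11a1 (-2.18, adjusted p = 0.110), Pde2a (-1.65, adjusted p = 0.113) and Gpm6b (-1.50, adjusted p = 0.122). Pde2a, which breaks down cyclic nucleotides, stood at -0.61 in BSA and -3.03 in PA, and its unadjusted p was among the 3 smallest for the difference between treatments.

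No gene was shown to respond differently to the ASO in BSA and PA. The interaction passed the adjusted threshold for 0 genes (0%, with edgeR's quasi-likelihood test and also with DESeq2), and 332 reached an unadjusted p below 0.05 (2.09%, and 340 with DESeq2). The interaction with batch also gave 0 (0%), with 583 at an unadjusted p below 0.05 (3.66%, and 602 with DESeq2). Tested within BSA alone 0 genes passed (0%, with 439 or 2.76% at an unadjusted p below 0.05). Within PA alone 6 passed (0.0377%, all lowered, with 529 or 3.32% at an unadjusted p below 0.05). Within batch 1 and batch 2 alone 0 passed each (0%), with 554 (3.48%) and 588 (3.69%) at an unadjusted p below 0.05. All 35 genes had the same sign in these 4 fits, which use the libraries they were chosen on.

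Both batches share no libraries, nor do BSA and PA, although BSA and PA libraries may share animals. Genes lower by more than 2-fold in batch 1, with an unadjusted p below 0.05, numbered 66 (0.415%), and 58 of them were lower in batch 2 (87.9%). Those higher in batch 1 numbered 28 (0.176%), and 18 were higher in batch 2 (64.3%). In the other direction, 111 of 123 genes lower in batch 2 (0.773%) were lower in batch 1 (90.2%), and 14 of 21 higher ones (0.132%) were higher. Over all genes, 48.4% had the same sign in both batches. Between treatments, 73 of 109 genes lower in BSA (0.685%) were lower in PA (67.0%), and 19 of 22 higher ones (0.138%) were higher. Of 115 genes lower in PA (0.723%), 100 were lower in BSA (87.0%), and of 23 higher ones (0.145%) 14 were higher. Over all genes, 49.1% had the same sign in both treatments. Of 15916 genes tested, 49 were called in both batches, 44 lowered and 5 raised. The raised ones included Oas2, Oas3, Apol9a and Apol9b. The lowered ones included Sox10, Cdh19, Ngfr, Gfap, S100b and Foxd3 of the glial list.

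**Figure D5:**
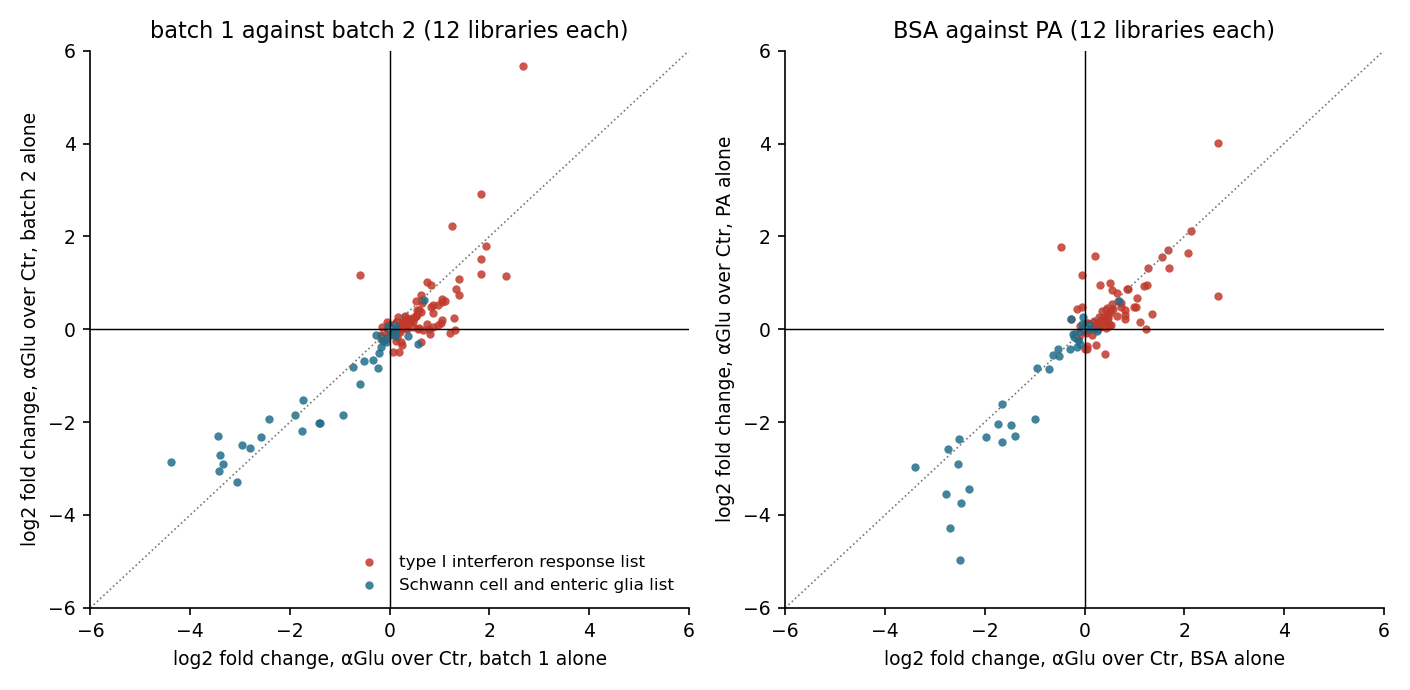
Log2 fold change of αGlu over Ctr in batch 1 against batch 2 (left) and in BSA against PA (right), each from 12 libraries, for genes of the interferon list and of the Schwann cell and enteric glia list, with a dotted line of equality. Interferon genes lie mostly above and to the right of 0, with Apol9b at 2.67 and 5.68 in the batches, and glial genes mostly below and to the left.

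The target site of the ASO was searched for in the transcripts of the changed genes, as contiguous runs of the letters of bases 2 to 21 of the fragment in GENCODE M21. Over 15909 genes with a transcript the longest run had 13 bases, and 165 genes (1.04%) had a run of 11 or more. The longest run was 10 bases in the 27 lowered genes and 9 in the 8 raised ones, so none of them held 11. A run describes shared letters, and shorter or gapped pairing was not searched.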

How the data were processed

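Dispersed mouse islet cells were profiled in 24 stranded mRNA libraries. The deposited table, made by the authors with the QIAGEN RNA-seq Analysis Portal, gives for each gene and library the count of reads on exons, with RPKM, TPM and CPM. The submitters' processing notes name GRCm38. For the aligner, the annotation and the strand setting of the counting, the sources used here give nothing. Counts were tested as deposited, the deposited TPM served to compare levels of markers between genes, and 48 RPKM and CPM columns were not used. Empty cells were read as 0. Of 41549 identifiers, 41474 matched a mouse gene name table, 1 line without a gene was left out, and 16206 genes had no count. No column lacked a sample.

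edgeR 4.0.16 in R 4.3.3 was used with TMM scaling, filterByExpr for the 4 groups (15916 genes, 99.95% of counts), and two-sided quasi-likelihood tests with terms for ASO, treatment and batch, adjusted by Benjamini-Hochberg. Interactions were tested in models with that term added. SE is the standard error of the log2 fold change, and the biological coefficient of variation was 15.3%. Scripts were tested on simulated data. Alternatives were DESeq2 1.42.0, limma 3.58.1 voom, surrogate variables (sva 3.50.0), other scalings, filters and covariates, subsets and the omission of each library. Omission of S9 and S23 was chosen after seeing the data. A block of 4 consecutive libraries was added later too. The labels do not say which libraries share a preparation, so p-values measure the spread between libraries and not between the 6 independent experiments that the study gives.

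Genes were named by a rule: the 12 raised and 12 lowered genes of smallest p, the genes the study names, up to 4 genes of each list (12 for interferon, glia and MHC class II) and the 3 of smallest p in each interaction. The other genes past the adjusted threshold, and those named by role, were added after their values were seen. The comparison, the members and the hand-written lists were chosen with earlier results of these data known. Positions and promoters are from RefSeq GRCm38.p6, where all 136 genes taken by the rule or past the threshold had a position. A few genes that entered the counts are not reported here by name.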

Additional observations from a re-analysis of the deposited data

Results flagged for a closer look

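Of 192 checks of single libraries within the 4 groups of 6, 15 (7.81%) had a library far from the others (gap over range above 0.625). That cutoff is set for about 1 in 20 with independent, normally distributed values. These checks share libraries and genes, and every flagged library was the highest of its group, so 1 in 20 is not their chance rate. In Ctr BSA, library S21 had 541 CPM summed over the macrophage genes (105 to 238 in the others), 70 CPM over the MHC class II genes (16.7 to 26.9) and 8.77 CPM of Plxnb3 (0.598 to 2.93). In αGlu PA, S8 had 23.2 CPM of MHC class II genes (12.5 to 16.3), S24 had 1.01 CPM of Mmp17 (0.108 to 0.344) and 3.1 CPM of Chl1 (1.29 to 1.95), and S4 had 0.916 CPM of Plxnb3 (0.524 to 0.645). In αGlu BSA, S14 had 1.38 CPM of S100b (0.0697 to 0.361) and 0.592 CPM of Kcna1 (0 to 0.0705), and S22 had 1.06 CPM of Gfap (0 to 0.276), 0.766 CPM of Sox2 (0 to 0.276) and 0.553 CPM of C1ql1 (0 to 0.0794). Apol9b read 0.99 CPM in Ctr BSA library S5 (0 to 0.193 in the others) and 0.109 CPM in Ctr PA library S7 (0 to 0.0354). Gpc1 read 53.3 CPM in Ctr PA library S19 (20.6 to 29.1).

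The interferon-inducible chemokine Cxcl9, too low for the tests, reached 3.4 CPM in αGlu PA library S8, where it had 88 counts. It had 1 count each in S6 and S18, and 0 counts in all 12 Ctr libraries.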

How the results depend on the processing

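The count of 35 genes past an adjusted p of 0.05 was 90 with DESeq2's Wald test, 66 of 25343 genes with no filter beyond 1 count, 58 with 2 surrogate variables, 1 with limma voom and sample quality weights, 0 without the batch term, 0 without the treatment term, 0 in BSA alone, 6 in PA alone, 0 in batch 1 alone, 0 in batch 2 alone, 1 without S9 and S23 and 60 with the replicate block described below (both chosen after seeing the data). With each library left out in turn it ran from 16 (without S9) to 63 (without S17). It stayed within 1.5 times under the other scalings, the robust fit, the stricter filter and the remaining covariates (26 to 40). The count of 107 at a fold change above 2 was 659 with no filter and 92 to 120 with 1 library left out. Both interaction counts stayed 0 under DESeq2, both other filters and each omission. Library totals differed by 615310 counts in the mean and 517394.5 in the median (exact permutation p = 0.682 and 0.88). Over 59 named genes, 834 values kept direction and side of the threshold, 310 kept direction but no longer passed it, 58 newly passed it and 24 reversed, none of them among the 35 genes. The cause of these changes was not tested.

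Reversed values belong to genes that never passed. Tgfbi (0.06) read -0.77 with voom, -0.074 without batch, -0.0918 without treatment, -0.54 with 1 term for each combination, -0.10 with surrogate variables, -1.63 in BSA, -1.62 in batch 2, -0.16 without S9 and S23, -0.25 with the block and -0.96 to 0.74 with 1 library left out. Cxcl14 (0.76) read -0.22 in BSA and -0.26 in batch 2. Bcl2l1 read 0.0122 in batch 2. Neurod1 (0.01) read -0.0003 without batch, -0.0647 in PA, -0.0524 in batch 2 and -0.0092 to 0.0531 with 1 library left out. Vamp8 (-0.02) read 0.0047 in PA, 0.0435 in batch 2 and -0.0452 to 0.0049 with 1 library left out, and Tax1bp3 (-0.05) -0.0935 to 0.0123. H2-Aa read 0.13 in PA, and Cd74 0.15 in PA and 0.13 in batch 1.

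The labels number the libraries S1 to S24 once and give no shared replicate numbers, so the unpaired fit was kept. For the replicate block, each 4 consecutive numbers were taken as a set, 6 in all. Deviations from the group means of a batch correlated from 0.0183 to 0.37 (median 0.152) within sets and from -0.306 to 0.118 between sets of a batch, and 23 of 24 libraries correlated best with their own set, a hint from the data and not from the labels. With the block, Grik3 no longer passed (adjusted p = 0.0552), and the treatment interaction gave 0 genes (525 at an unadjusted p below 0.05). Depth limits the lowered genes, whose mean counts per library began at 8.46, and the interferon transcripts.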
